A study of Rattus norvegicus with 20 samples.

Results

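The genes of the rat major histocompatibility complex, called RT1, and of the antigen presentation pathway were followed in whole blood. They were taken as every gene whose array name starts with RT1-, together with B2m, Tap1, Tap2, Tapbp, Cd74, Ciita, Psmb8, Psmb9 and Psmb10. This gave 53 genes with 64 probes: 36 class I genes, 8 class II genes (RT1-B, RT1-D, RT1-DM and RT1-DO) and 9 genes of the presentation machinery. Of these, 44 were bright enough to be tested (28 class I, 7 class II and 9 machinery genes), among 15243 genes tested on the arrays. The membership rule used names and no measured values, but the genes were chosen with earlier results of these data known.

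All 20 samples were peripheral whole blood of Wistar rats, 1 Cy3-labelled Agilent array per rat and 4 rats in each of 5 groups. Rats with surgically induced reflux esophagitis received omeprazole, a proton pump inhibitor, at 30 mg/kg, the herbal preparation STW5 at 0.5 ml/kg, STW5 at 2 ml/kg, or no treatment, and the last group had a sham operation. Omeprazole and STW5 were given for 7 days before the operation and for 10 days after it. The age of the rats was not given in the sources used here. Wistar rats are an outbred stock, so the rats of a group need not share RT1 alleles.

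The omeprazole arrays lay on 1 slide, the arrays of both STW5 doses on another, and the untreated and sham arrays on the third. For omeprazole against untreated, STW5 against untreated and omeprazole against STW5, slide and treatment cannot be told apart. The array titles and the study's design text number the STW5 dose groups in opposite order, and the titles were followed here. The 75th percentile of the processed signal was 71.3 to 308 intensity units per array, and the share of probes well above background was 43.1% to 57.4%. Markers of the labelled tissue were present: all 10 T-cell, 10 B-cell, 9 neutrophil and 6 erythroid markers found on the arrays were bright enough to be tested. Of 11 B-cell markers listed 10 were found by name on the arrays, and of 8 erythroid markers 6. Over the genes tested, untreated array 2 correlated at 0.877 to 0.931 with the other untreated arrays and untreated array 3 at 0.877 to 0.949. The value of 0.877 is that of arrays 2 and 3 with each other, so both stood apart. Untreated array 1 correlated at 0.992 with sham array 3, the highest value of any pair of arrays. Where leaving out these arrays changed a call or moved a difference from untreated markedly, the values without them are given below.

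Class I molecules show peptides from inside the cell to CD8 T cells and pair with beta-2 microglobulin, the product of B2m. Psmb8, Psmb9 and Psmb10 encode the interferon-inducible catalytic subunits of the immunoproteasome, which cuts the peptides. Tap1 and Tap2 form the transporter that carries them into the endoplasmic reticulum, and Tapbp (tapasin) holds the empty class I molecule at that transporter. Class II molecules show peptides from taken-up material to CD4 T cells and are made mainly by B cells, monocytes and dendritic cells. The invariant chain Cd74 guards their groove, RT1-DM exchanges its remnant for peptide, RT1-DO restrains RT1-DM, and Ciita is the coactivator that switches class II genes on.

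Class I genes resemble each other closely, and so do their probes. The probe that stands for RT1-CE4 overlapped that of RT1-CE2 by 46 bases with 9 mismatches, and a probe of RT1-A1 overlapped that of RT1-CE11 over all 60 bases with 7 mismatches. This RT1-A1 probe is the dimmer of its 2, so the RT1-A1 levels given below are those of the other probe, which had no such overlap. No such overlap with another probe was found for the probe of RT1-T24-4. Probes were compared only with each other, and short runs of bases common to many probes were not used to find overlaps. No probe was compared with transcripts, so whether a probe measures its gene alone was not tested. These sequences are shown because they carry the class I calls or show how alike class I probes are, and capitals mark the bases that differ from the partner within the overlap.
RT1-CE4: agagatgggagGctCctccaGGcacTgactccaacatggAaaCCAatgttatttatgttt
RT1-CE2: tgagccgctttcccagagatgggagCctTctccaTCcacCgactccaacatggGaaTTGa
RT1-A1, dimmer probe: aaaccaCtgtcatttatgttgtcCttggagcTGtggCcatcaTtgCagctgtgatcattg
RT1-CE11: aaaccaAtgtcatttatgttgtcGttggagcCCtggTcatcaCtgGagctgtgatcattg
RT1-T24-4: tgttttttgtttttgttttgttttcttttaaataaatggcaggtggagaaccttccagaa

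Blood of omeprazole-treated rats had lower signal for 2 class I genes, RT1-T24-4 and RT1-CE4, than blood of untreated rats, and no other gene of the pathway passed the test. A level is the processed intensity on a log2 scale, after subtracting the 75th percentile of its array on the same scale, and differences are between such levels. RT1-T24-4 had levels of -0.38, -1.19, -0.81 and -0.95 on the omeprazole arrays. It had 3.61, 2.74, 2.60 and 3.23 on the STW5 0.5 ml/kg arrays and 3.49, 3.92, 3.53 and 2.22 on the STW5 2 ml/kg arrays. It had 3.32, 2.81, 3.42 and 1.71 on the untreated arrays and 3.83, 3.42, 3.24 and 3.87 on the sham arrays. Every omeprazole array was below every array of the other groups, and the probe was well above background on all 20 arrays. The difference between omeprazole and untreated was -3.65 ± 0.38 (SE), 12.5-fold lower with omeprazole (limma, adjusted p = 2.0e-06). It was also lower than in the mean of both STW5 doses, by a difference with a 95% interval of -4.69 to -3.31 (limma, adjusted p = 5.56e-08).

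RT1-CE4 had levels of -0.81, -0.58, 0.33 and -0.25 on the omeprazole arrays. Its levels were 1.38 to 1.89 on the STW5 0.5 ml/kg arrays, 1.10 to 1.81 on the STW5 2 ml/kg arrays, 1.28 to 1.90 on the untreated arrays and 1.42 to 1.98 on the sham arrays. Again no omeprazole array reached the level of any other array. RT1-CE4 was lower with omeprazole by -1.90 ± 0.25 against untreated (3.72-fold, limma, adjusted p = 3.63e-05) and by -1.86 ± 0.22 against the mean of both STW5 doses (limma, adjusted p = 4.86e-06).

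**Figure D1:**
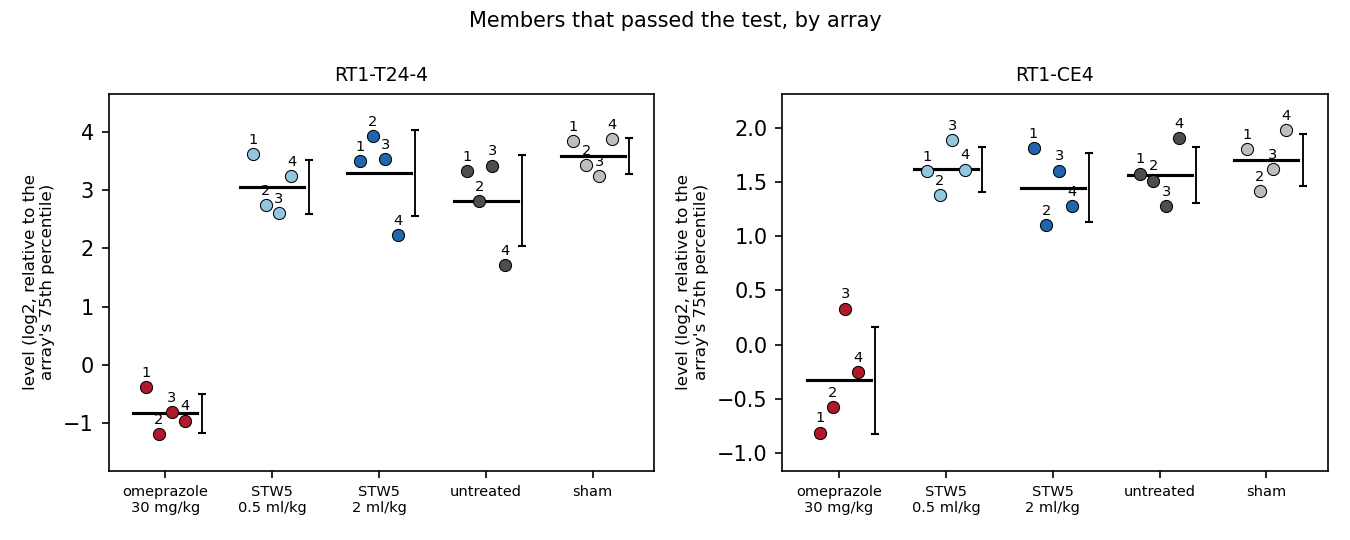
Levels of RT1-T24-4 and RT1-CE4 (vertical axes, log2 relative to the array's 75th percentile) on each array, by group, with the array's replicate number above each point. Lines are group means and bars are SDs over 4 arrays. The omeprazole arrays of RT1-T24-4 lie at -1.19 to -0.38, below all other arrays.

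Both calls held in all 32 alternatives, with differences from untreated of -4.01 to -2.97 for RT1-T24-4 and -2.12 to -1.51 for RT1-CE4. Omeprazole against untreated called 2 of the 44 genes, and 4.18% of all genes tested were called, with 0.348% higher and 3.83% lower. Omeprazole against STW5, both doses averaged, also called 2 of 44, where 4.86% of all genes were called, 0.21% higher and 4.65% lower. At an unadjusted p below 0.05 it had 11 of the 44 and 14% of all genes. Arrays of the groups did not overlap in the lower direction for these 2 genes alone, beside 4.95% of all genes against untreated and 3.88% against STW5. Probes that closely resemble a brighter probe of another gene were called lower with omeprazole more often: 23.7% of 758 such probes, against 2.69% of 16478 others, in the comparison with untreated. In the comparison with STW5 the shares were 27.8% and 3.26%. Such a near match meant an overlap of at least 40 bases with at least 80% identity and at most 8 mismatches. By that definition 8 of the 52 probes tested for these genes had one, and neither RT1-T24-4 nor RT1-CE4 did. RT1-CE4, with 9 mismatches to the brighter RT1-CE2, fell just outside the limit. Without the limit on mismatches, an alternative chosen after that alignment was seen, RT1-CE4 counted as a near match, and the shares were 23.4% of 846 probes and 2.6% of 16390. The part of probe resemblance in the RT1-CE4 result was not tested. RT1-T24-4 rested on 1 probe with 1 spot per array, and whether that probe measures RT1-T24-4 alone was not tested.

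In RefSeq (GRCr8) RT1-S3 and RT1-T24-1 flank RT1-T24-4 on chromosome 20 among the genes followed, and RT1-T24-2 lies within its span. These genes are named for their position and were chosen after their values were seen. RT1-S3 differed between omeprazole and untreated by 0.55, RT1-T24-1 by -0.05 and RT1-T24-2 by 1.51 (adjusted p = 0.109). RT1-CE2, whose probe overlaps that of RT1-CE4, had levels of 7.40, 7.44, 7.12 and 7.58 on the omeprazole arrays and 7.09, 7.20, 7.09 and 7.01 on the untreated arrays. It had 7.46, 7.17, 7.04 and 6.37 with STW5 0.5 ml/kg, 7.34, 7.50, 6.92 and 6.10 with STW5 2 ml/kg and 7.36, 7.28, 6.96 and 7.54 in sham rats. The omeprazole levels overlapped those of every other group. Its difference between omeprazole and untreated was 0.29 ± 0.28. The dimmer probe of RT1-CE2 averaged 3.87 with omeprazole, 3.18 with STW5 0.5 ml/kg, 2.45 with STW5 2 ml/kg, 2.96 in untreated and 2.99 in sham rats. The dimmer probe of RT1-T24-1 averaged 3.48 with omeprazole and 3.07 in untreated rats.

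None of the other class I genes passed the test in any comparison. RT1-A1, a classical class I gene, averaged 8.16 ± 0.17 with omeprazole, 7.97 ± 0.28 with STW5 0.5 ml/kg, 8.21 ± 0.55 with STW5 2 ml/kg, 8.13 ± 0.29 in untreated and 8.06 ± 0.33 in sham rats (SD, n = 4 each). Its difference between omeprazole and untreated was 0.03, with a 95% interval of -0.52 to 0.58. RT1-S2, RT1-CE16 and RT1-CE14 differed by 0.47, -0.13 and 0.17 in the same comparison, and none passed the test. RT1-S2 lay higher on every omeprazole array (7.17 to 7.41) than on any untreated array (6.65 to 6.95), with an adjusted p of 0.389. RT1-S2 further had 7.17, 6.77, 6.79 and 6.30 with STW5 0.5 ml/kg, 7.33, 7.12, 6.74 and 6.0 with STW5 2 ml/kg and 7.30, 7.03, 6.86 and 7.39 in sham rats. The lowest STW5 level at both doses was on array 4. RT1-CE16 had levels of 6.31, 6.29, 6.27 and 6.43 on the omeprazole arrays, 6.54, 6.14, 6.42 and 6.08 with STW5 0.5 ml/kg and 6.81, 6.46, 6.20 and 5.50 with STW5 2 ml/kg. It had 6.48, 6.51, 6.0 and 6.81 on the untreated arrays and 6.57, 6.31, 6.41 and 6.65 on the sham arrays. All groups overlapped. RT1-CE14 had levels of 6.71, 6.35, 5.73 and 6.12 on the omeprazole arrays, 6.91, 6.05, 5.97 and 5.59 with STW5 0.5 ml/kg and 6.82, 6.82, 6.04 and 5.07 with STW5 2 ml/kg. It had 6.57, 6.38, 5.67 and 5.63 on the untreated arrays and 6.85, 6.82, 6.52 and 7.07 on the sham arrays. No untreated array reached the highest sham level, and the groups overlapped.

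For omeprazole against untreated, 3 of the 28 class I genes tested were higher without overlap, where 2.31% of all genes were. RT1-S2 was among these 3. Its probe overlaps that of RT1-CE5 over 58 bases with 7 mismatches, and RT1-CE5 averaged 6.35 with omeprazole and 5.87 in untreated rats. Whether these probes measure their genes separately was not tested, so the count of 3 is not read as an excess over 2.31%.

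**Figure D2:**
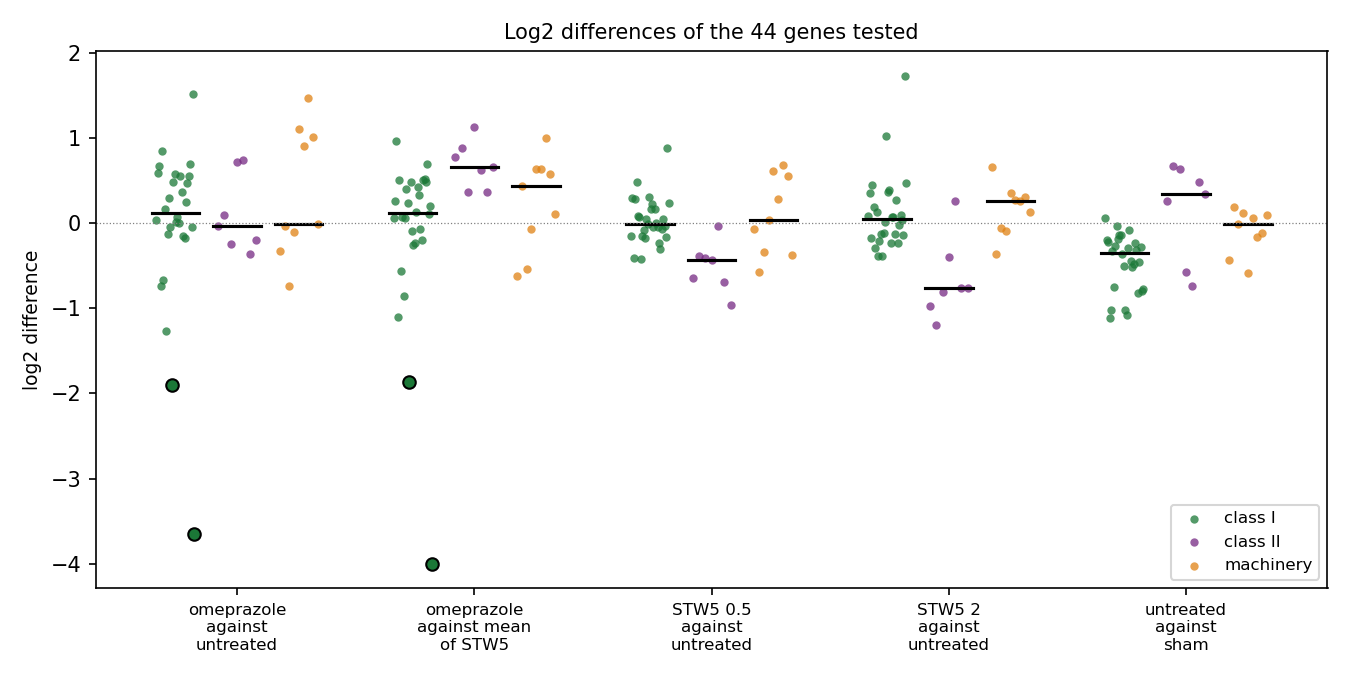
Log2 differences (vertical axis) of the 44 genes tested in 5 comparisons, coloured as class I, class II and machinery genes, with the median of each class as a line. Outlined points passed the test: RT1-T24-4 and RT1-CE4, both lower with omeprazole.

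Untreated esophagitis against sham operation called none of the 44 genes with limma, and 0.00656% of all genes, 1 gene, were called. At an unadjusted p below 0.05 there were 3 of the 44 and 18.2% of all genes. None of the 44 had groups that did not overlap, where 1.49% of all genes had them higher and 1.65% lower in untreated blood. Of the class I genes 27 of 28 had lower means in untreated than in sham blood, with a median difference of -0.35, beside -0.19 over all genes tested. This direction depended on the scaling: with arrays scaled on spike-in controls the medians were 0.17 for class I and 0.32 for all genes. Of the class II genes 5 of 7 had higher means in untreated blood, with a median of 0.34, and -0.23 without untreated array 4. Without untreated arrays 1 and 2 the test called 11 of the 44 genes (25%), beside 28.5% of all genes, a share near the background. Of these, Cd74, Ciita, Psmb10, RT1-Bb, RT1-Da, RT1-DMa and RT1-DMb were higher in untreated blood and RT1-CE11, RT1-CE7, RT1-Cl and RT1-S3 were lower. This alternative was chosen after seeing the data and kept only untreated arrays 3 and 4. It leaves out untreated array 2, which had the lowest class II mean, so these genes are not counted as calls.

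The class II genes differed most between rats of the untreated group. RT1-Da, the alpha chain of the rat counterpart of HLA-DR, had levels of 3.61, 3.77, 4.04 and 4.10 on the omeprazole arrays. It had 3.26 to 3.91 on the STW5 0.5 ml/kg arrays and 2.50 to 4.13 on the STW5 2 ml/kg arrays. It had 4.15, 1.73, 4.91 and 6.17 on the untreated arrays and 3.36 to 4.09 on the sham arrays. The untreated arrays thus held both the lowest and the highest level of all 20. RT1-Db1, its beta chain, was at 4.79, 2.72, 4.72 and 7.26 on the untreated arrays, and RT1-Bb, the beta chain of the counterpart of HLA-DQ, at 4.97, 2.55, 5.69 and 6.37. The probe of RT1-Ba, its alpha chain, was not well above background on any array.

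In the other groups these beta chains varied less. RT1-Db1 had levels of 4.71, 4.54, 4.94 and 4.48 with omeprazole, 3.81, 3.56, 3.73 and 4.55 with STW5 0.5 ml/kg, 3.30, 3.70, 4.84 and 4.61 with STW5 2 ml/kg and 4.54, 4.04, 4.96 and 4.60 in sham rats. RT1-Bb had 4.41, 5.01, 4.73 and 5.29 with omeprazole, 4.01, 4.57, 4.29 and 4.11 with STW5 0.5 ml/kg, 3.22, 4.19, 4.87 and 3.38 with STW5 2 ml/kg and 4.74, 4.21, 4.94 and 4.64 in sham rats. Omeprazole against untreated gave -0.36 ± 0.60 for RT1-Da, -0.20 ± 0.60 for RT1-Db1 and -0.03 ± 0.55 for RT1-Bb (limma, adjusted p = 0.792, 0.887 and 0.982). STW5 2 ml/kg against untreated gave -0.76 ± 0.60, -0.76 ± 0.60 and -0.98 ± 0.55 for the same genes (adjusted p = 0.464, 0.466 and 0.294). Without untreated array 2 omeprazole gave -1.20, -0.92 and -0.82 and STW5 2 ml/kg -1.60, -1.48 and -1.76, none of which passed the test.

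The class II genes did not all share the low level on untreated array 2. RT1-DOa had -1.19, -4.85, -1.70 and -1.38 on the untreated arrays and was not well above background on array 2. RT1-DOb had 1.57, -1.69, 1.57 and 0.49. RT1-DMa had 2.17, 2.44, 2.86 and 3.70, and RT1-DMb had 2.15, 1.93, 2.71 and 4.07. Array 2 thus held the lowest of the 4 levels for RT1-Da, RT1-Db1, RT1-Bb, both RT1-DO genes and RT1-DMb. For RT1-DMb it lay close to array 1 (1.93 and 2.15), and RT1-DMa was lowest on array 1.

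The accessory class II genes had a narrower range in the other groups. RT1-DMa had levels of 2.57, 3.09, 2.60 and 3.27 with omeprazole, 1.99, 3.01, 2.96 and 1.64 with STW5 0.5 ml/kg, 1.40, 1.24, 2.38 and 1.37 with STW5 2 ml/kg and 2.05, 1.95, 2.11 and 2.37 in sham rats. RT1-DMb had 2.38, 2.48, 2.36 and 2.63 with omeprazole, 1.74, 2.52, 2.72 and 2.24 with STW5 0.5 ml/kg, 1.98, 1.32, 2.37 and 1.92 with STW5 2 ml/kg and 2.01, 1.87, 2.21 and 2.21 in sham rats. The omeprazole levels of both genes lay within the range of the untreated levels. RT1-DOa had -1.98, -1.65, -1.34 and -1.28 with omeprazole, -2.18, -3.80, -2.72 and -2.17 with STW5 0.5 ml/kg, -3.80, -2.58, -2.23 and -2.10 with STW5 2 ml/kg and -1.51, -2.01, -1.47 and -1.82 in sham rats, and was not well above background on STW5 2 ml/kg arrays 1 and 2. RT1-DOb had 1.04, 1.14, 1.38 and 1.34 with omeprazole, 0.78, 0.16, 0.30 and 0.57 with STW5 0.5 ml/kg, 0.48, 0.71, 1.22 and 0.57 with STW5 2 ml/kg and 1.30, 0.89, 1.51 and 1.18 in sham rats. The omeprazole levels of both genes again lay within the range of the untreated levels. Against untreated, omeprazole gave 0.09 ± 0.36 for RT1-DMa, -0.25 ± 0.36 for RT1-DMb, 0.72 ± 0.60 for RT1-DOa and 0.74 ± 0.48 for RT1-DOb, with no call. Without untreated array 2 these were -0.02, -0.51, -0.14 and 0.02, so the sign turned for RT1-DMa and RT1-DOa.

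Averaged over each class, with each gene's mean over the 20 arrays set to 0, the 7 class II genes averaged 0.37, -1.60, 0.68 and 1.52 on the untreated arrays. The 28 class I genes averaged 0.12, -0.17, -0.29 and -0.13 there. The mean of 10 B-cell markers, on the same scale, was 0.71, -2.60, 0.84 and -0.34 on these arrays, that of 10 T-cell markers 0.49, -2.48, -0.26 and -0.52, and that of 7 monocyte markers -0.49, 1.20, 0.34 and 1.06. Array 2, with the lowest class II mean, thus also had the lowest B-cell and T-cell means and the highest monocyte mean of the 4. Array 4, with the highest class II mean, did not show the reverse. Its B-cell mean was -0.34, its T-cell mean -0.52 and its monocyte mean 1.06, close to that of array 2. The mean of 6 dendritic cell markers was -0.62 to 0.08 on the untreated arrays. In the other groups the B-cell mean was -0.18 to 0.62 with omeprazole, -0.52 to 0.17 with STW5 0.5 ml/kg, -0.99 to 0.49 with STW5 2 ml/kg and 0.33 to 0.77 in sham rats. The monocyte mean was -0.29 to 0.02 with omeprazole, -0.22 to 0.63 with STW5 0.5 ml/kg, -0.64 to 0.31 with STW5 2 ml/kg and -0.73 to -0.19 in sham rats. In whole blood, fewer cells of a type and less RNA per cell cannot be told apart, and the part of these cells in the class II levels was not tested.

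**Figure D3:**
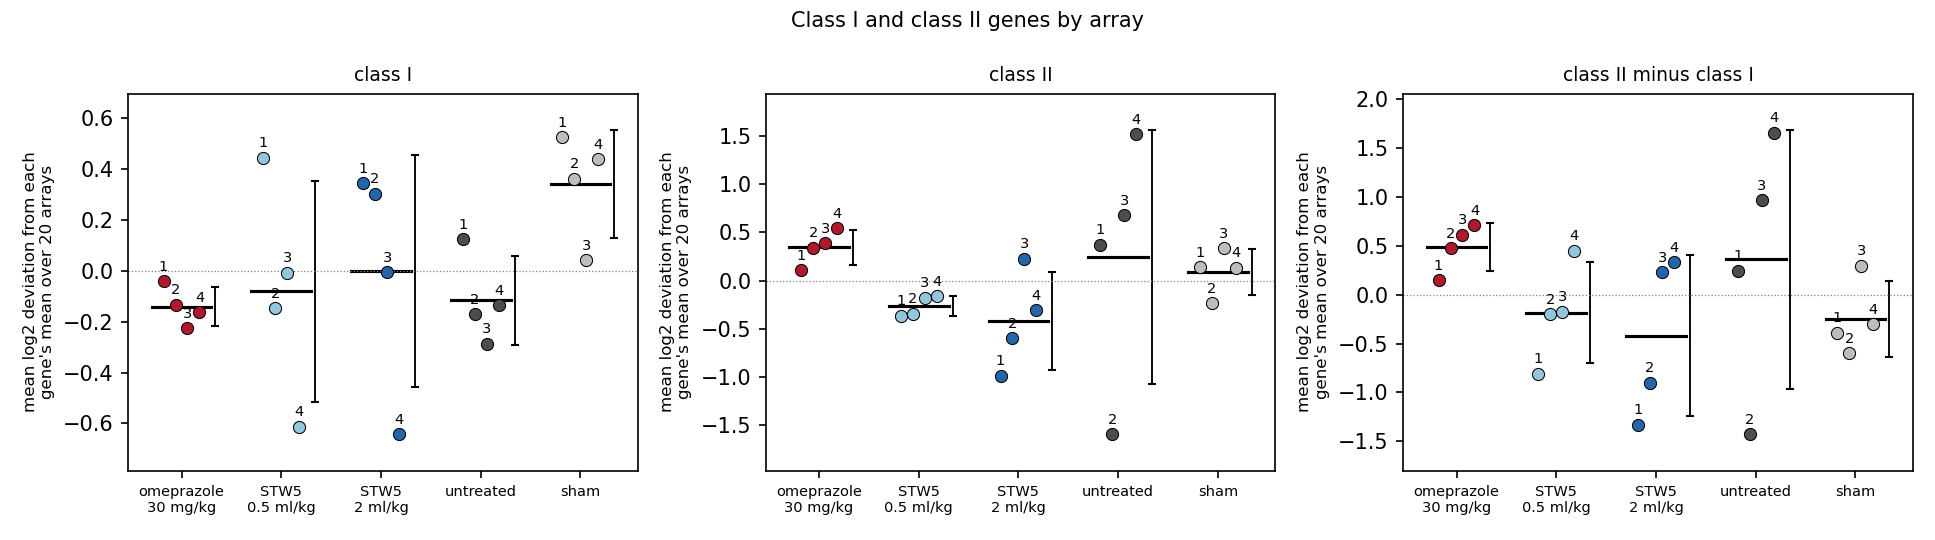
Mean log2 deviation of the 28 class I and the 7 class II genes from each gene's mean over 20 arrays, and their difference (vertical axes), on each array by group. Lines are group means, bars are SDs over 4 arrays and numbers are replicates. Untreated array 2 has the lowest class II mean (-1.60) and untreated array 4 the highest (1.52).

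Class II set against class I within an array does not depend on a scaling factor per array. This difference averaged 0.49 ± 0.24 with omeprazole, -0.18 ± 0.52 with STW5 0.5 ml/kg, -0.42 ± 0.83 with STW5 2 ml/kg, 0.36 ± 1.32 in untreated and -0.25 ± 0.38 in sham rats (SD, n = 4 each). Group means therefore differed by 0.12 for omeprazole against untreated, by -0.66 for the mean of both STW5 doses against untreated and by 0.61 for untreated against sham. Each of these was smaller than the SD of the untreated arrays. Without untreated array 2 they were -0.47, -1.26 and 1.21. The class I mean includes RT1-T24-4 and RT1-CE4, both called lower with omeprazole, and values without these genes are not given here.

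STW5 called none of the 44 genes against untreated at 0.5 ml/kg, at 2 ml/kg or over both doses with limma, and 0% of all genes were called in each. At an unadjusted p below 0.05 there were 0, 5 and 2 of the 44, beside 5.93%, 23.5% and 9.54% of all genes. Of the class II genes 6 of 7 had lower means over both STW5 doses than in untreated blood, with a median difference of -0.73, beside 0.10 over all genes. Without untreated array 4 the class II median was -0.12, and without untreated array 2 it was -1.27. None of the 44 separated from untreated without overlap at 2 ml/kg (3.34% of all genes did so higher, 0.774% lower), at 0.5 ml/kg (0.676% and 1.21%) or over both doses (0.0394% and 0.0459%). RT1-DMa had levels of 1.40, 1.24, 2.38 and 1.37 on the STW5 2 ml/kg arrays, against 2.17 to 3.70 on the untreated arrays. Its difference was -1.19 ± 0.36 (limma, adjusted p = 0.0974), and -1.40 without untreated array 1 (adjusted p = 0.0201), where 19.8% of all genes were called. The second value leaves out the lowest untreated level of RT1-DMa and is not counted as a call. RT1-T24-2, a class I gene, went the other way at 2 ml/kg, with a difference of 1.73 ± 0.49 (limma, adjusted p = 0.0972). Without untreated arrays 1 and 2 the comparison of STW5 2 ml/kg with untreated called 13 of the 44 genes (29.5%), beside 29.7% of all genes, again near the background. Among them RT1-DMa, RT1-Da, RT1-Db1, RT1-Bb, RT1-DMb, Cd74, Ciita and Psmb10 were lower with STW5, and B2m was higher, by 1.01. This alternative was chosen after seeing the data and leaves out untreated array 2, which had the lowest class II mean. These genes are therefore not counted as calls. Same-numbered arrays of these 2 groups deviated together in all 4 pairs. With the replicate number as a block the comparison called none of the 44, beside 3.37% of all genes in the fit of all arrays and 0% in a fit of these 8 arrays.

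STW5 at 2 ml/kg against 0.5 ml/kg, both on 1 slide, also called none of the 44 (0% of all genes; 3 of 44 and 26.6% of all genes at an unadjusted p below 0.05, limma). B2m averaged 8.35 ± 0.55 at 2 ml/kg and 7.63 ± 0.40 at 0.5 ml/kg (SD, n = 4 each), a difference of 0.73 ± 0.29 (adjusted p = 0.138). Tapbp alone did not overlap between the doses, higher by 0.50 at 2 ml/kg (adjusted p = 0.142), where 7.35% of all genes did so higher and 3.82% lower. With the dose labels exchanged, as the design text numbers them, the directions of B2m and Tapbp turn. Omeprazole against the averaged STW5 doses gave higher means for 7 of 7 class II genes, with differences of 0.36 to 1.13 and a median of 0.65, beside 0.00 over all genes. None of the 7 passed the test, and RT1-DOa alone did not overlap (1.13, adjusted p = 0.328), where 0.879% of all genes were higher without overlap.

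Ciita, the class II coactivator, varied across arrays with Cd74 and RT1-Da, less closely with other class II genes, and hardly with RT1-DMa. It had levels of -1.97, -1.56, -1.62 and -1.74 on the omeprazole arrays, -1.78 to -1.08 on the STW5 0.5 ml/kg arrays and -1.88 to -0.41 on the STW5 2 ml/kg arrays. It had -0.46, -4.15, 0.22 and 0.43 on the untreated arrays and -1.42 to -0.45 on the sham arrays. The groups overlapped because of untreated array 2, where Ciita was not well above background. Omeprazole against untreated gave -0.74 ± 0.66 (limma, adjusted p = 0.599) with that array and -1.79 (adjusted p = 0.00194) without it. The second value leaves out the array with the lowest Ciita level and is not counted as a call. The share of all genes called without that array is not given here.

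Over the 20 arrays Ciita was compared with 8 genes. Its correlation with Cd74 was r = 0.884 (rho = 0.725), with Benjamini-Hochberg adjusted permutation p-values of 8e-05 and 0.0016 over the 8, where the raw p of 1e-05 for r is the smallest that the permutations can give. With RT1-Da it was r = 0.857 (rho = 0.737, adjusted permutation p = 8e-05 and 0.0016). RT1-Db1, RT1-Bb, RT1-DOb and RT1-DOa gave r of 0.720, 0.713, 0.640 and 0.638, with adjusted permutation p-values for r of 0.0051, 0.0024, 0.0181 and 0.00731. For rho they were 0.00936, 0.0593, 0.256 and 0.221. RT1-DMb gave r = 0.443 and RT1-DMa r = 0.119 (adjusted permutation p = 0.0728 and 0.622). Without the arrays whose Ciita lay farthest from the median, untreated 2 and 4, r was 0.689 for Cd74, 0.706 for RT1-Da, 0.443 for RT1-Db1, 0.360 for RT1-Bb, 0.340 for RT1-DOb and 0.251 for RT1-DOa. The relations of RT1-Bb, RT1-DOb and RT1-DOa with Ciita thus rested largely on those arrays. Within the slide of untreated and sham arrays r was 0.979 for Cd74 and 0.930 for RT1-Da, and within the STW5 slide 0.928 and 0.890. RT1-Db1 gave 0.829 and 0.810 on these slides. The other class II genes had lower r on the STW5 slide: 0.501 for RT1-DOa, 0.259 for RT1-DOb, 0.257 for RT1-Bb, 0.209 for RT1-DMb and 0.037 for RT1-DMa. On the slide of untreated and sham arrays these were 0.921, 0.829, 0.970, 0.591 and 0.390. The omeprazole slide held only 4 arrays and was given no value.

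**Figure D4:**
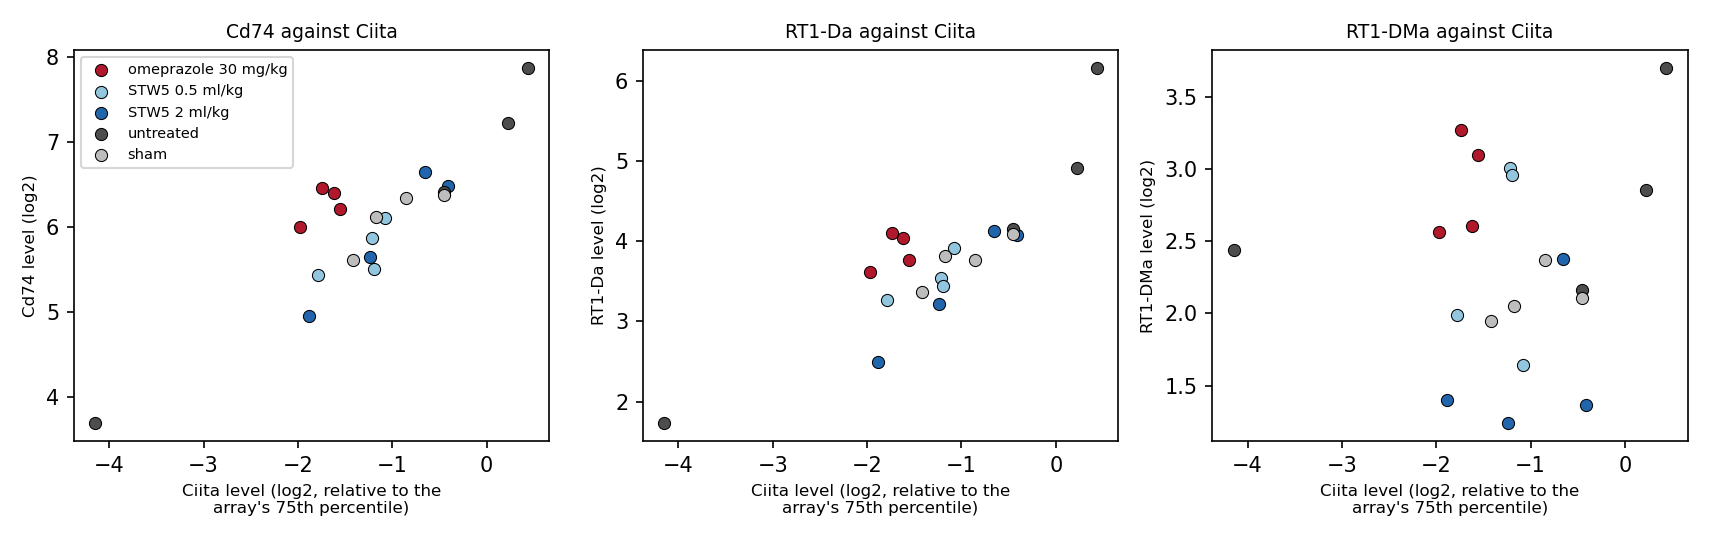
Levels of Cd74, RT1-Da and RT1-DMa (vertical axes) against Ciita (horizontal axis), all log2 relative to the array's 75th percentile, with 1 point per array coloured by group. Cd74 and RT1-Da follow Ciita (r = 0.884 and 0.857), RT1-DMa does not (r = 0.119), and the point at the far left is untreated array 2.

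The promoters of class II genes carry a Y box, known as part of the region where the complex that recruits Ciita binds. RefSeq promoter windows (GRCr8, 250 bases before to 50 after the gene start) were searched on both strands for 3 motifs. CTGATTGG, a Y box form, was in 5 of 7 class II windows (71.4%), in 12 of 28 class I windows (42.9%), in 1 of 8 machinery windows (12.5%) and in 3.5% of all 33469 windows. ATTGG, which CTGATTGG contains, was in 7 of 7 class II windows and in 37.5% of all. A form of the interferon response element, GAAA followed by any 2 bases and GAAA again, was in 6 of 8 machinery windows, in 3 of 28 class I windows, in 0 of 7 class II windows and in 3.92% of all. The windows of 3 class II genes are shown with CTGATTGG in capitals, and that of Tap1 with the match to the interferon response element, which lies on the other strand.
RT1-Da, chr20:4515165-4515464, plus strand: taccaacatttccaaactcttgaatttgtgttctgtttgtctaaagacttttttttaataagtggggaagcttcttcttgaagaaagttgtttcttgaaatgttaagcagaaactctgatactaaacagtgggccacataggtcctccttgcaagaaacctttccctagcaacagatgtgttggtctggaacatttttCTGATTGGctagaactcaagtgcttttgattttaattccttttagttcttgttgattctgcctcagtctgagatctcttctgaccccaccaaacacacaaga
RT1-Db1, chr20:4560113-4560412, minus strand: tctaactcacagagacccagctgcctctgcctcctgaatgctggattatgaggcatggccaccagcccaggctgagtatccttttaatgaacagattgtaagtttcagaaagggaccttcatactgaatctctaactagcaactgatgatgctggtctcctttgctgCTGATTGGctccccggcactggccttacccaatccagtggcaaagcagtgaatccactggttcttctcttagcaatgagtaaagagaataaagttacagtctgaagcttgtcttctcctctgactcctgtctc
RT1-Bb, chr20:4604069-4604368, minus strand: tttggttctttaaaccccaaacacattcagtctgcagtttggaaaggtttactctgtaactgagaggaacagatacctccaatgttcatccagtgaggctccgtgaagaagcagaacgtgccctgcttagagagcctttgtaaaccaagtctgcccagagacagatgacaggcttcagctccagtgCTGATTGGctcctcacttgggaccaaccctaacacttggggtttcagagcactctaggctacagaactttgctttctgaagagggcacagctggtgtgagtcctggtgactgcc
Tap1, chr20:4668494-4668793, minus strand: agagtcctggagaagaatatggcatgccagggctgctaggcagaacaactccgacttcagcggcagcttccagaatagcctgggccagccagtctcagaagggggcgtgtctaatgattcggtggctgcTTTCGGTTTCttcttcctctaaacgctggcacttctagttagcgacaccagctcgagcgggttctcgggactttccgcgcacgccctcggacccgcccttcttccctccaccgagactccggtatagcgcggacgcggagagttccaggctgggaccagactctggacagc

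A match is a description of the letters and says nothing of binding in these samples. The windows of Tap1 and Psmb9, which are read in opposite directions, share 44 bases.

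Tap1 and its neighbours Tap2, Psmb8 and Psmb9 had higher means with omeprazole, but none passed the test. Tap1 had levels of 0.97, 1.83, 1.40 and 2.33 on the omeprazole arrays, against 0.31, -1.24, 0.41 and 1.16 on the untreated arrays and 0.10 to 0.58 on the sham arrays. The groups overlapped through untreated array 4. Its difference between omeprazole and untreated was 1.47 ± 0.44 (limma, adjusted p = 0.0756). Without untreated array 2 it was 1.00 (adjusted p = 0.203), without array 4 it was 1.80 (adjusted p = 0.0273), and with the array signal as a covariate 1.64 (adjusted p = 0.0147). The value without array 4 leaves out the highest untreated level of Tap1 and is not counted as a call. On the STW5 arrays Tap1 had 0.64, 0.57, 1.83 and 0.31 at 0.5 ml/kg and 1.03, -0.08, 0.89 and -0.13 at 2 ml/kg.

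Tap2, the other transporter chain, had levels of 3.41, 4.28, 3.47 and 4.83 on the omeprazole arrays, 3.30, 3.56, 4.45 and 2.88 with STW5 0.5 ml/kg and 2.99, 3.35, 4.12 and 2.71 with STW5 2 ml/kg. It had 2.76, 1.58, 4.46 and 3.15 on the untreated arrays and 3.74, 3.11, 2.87 and 2.71 on the sham arrays. Untreated array 2 was the lowest of all. Psmb8 had levels of 2.76, 3.57, 3.21 and 3.96 on the omeprazole arrays, 2.87, 2.79, 3.46 and 2.36 with STW5 0.5 ml/kg and 2.96, 2.06, 2.99 and 2.45 with STW5 2 ml/kg. It had 2.72, 0.73, 2.16 and 3.45 on the untreated arrays and 2.90, 3.03, 2.69 and 2.81 on the sham arrays. Again untreated array 2 was the lowest. Psmb9 had levels of 4.07, 4.46, 4.15 and 4.79 on the omeprazole arrays, 3.68, 3.34, 4.36 and 3.61 with STW5 0.5 ml/kg and 3.68, 3.56, 4.30 and 3.37 with STW5 2 ml/kg. It had 3.38, 1.83, 3.61 and 5.04 on the untreated arrays and 3.50, 3.68, 3.14 and 3.28 on the sham arrays. The omeprazole and untreated levels overlapped through untreated array 4. Psmb8, Tap2 and Psmb9 differed by 1.11 ± 0.42, 1.01 ± 0.50 and 0.90 ± 0.44 between omeprazole and untreated (limma, adjusted p = 0.193, 0.337 and 0.337). Without untreated array 2, the lowest of that group for these genes, the differences were 0.60, 0.54 and 0.36 (adjusted p = 0.385, 0.555 and 0.61). Without untreated array 4, Psmb8 and Psmb9 passed with Tap1 (adjusted p = 0.0445 and 0.0374), while Tap2 did not. That setting called 5 of the 44 genes, beside 3.43% of all genes. It leaves out the highest untreated levels of Tap1, Psmb8 and Psmb9, so these are not counted as calls.

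The other machinery genes had smaller differences between omeprazole and untreated blood. Psmb10 had levels of 3.86, 4.20, 4.10 and 4.34 on the omeprazole arrays, 3.93, 4.36, 4.40 and 4.33 with STW5 0.5 ml/kg and 3.54, 3.79, 4.84 and 4.37 with STW5 2 ml/kg. It had 4.01, 2.86, 4.55 and 5.47 on the untreated arrays and 4.01, 4.22, 4.09 and 4.11 on the sham arrays. The untreated arrays held its lowest and highest levels. Cd74 had levels of 6.0, 6.21, 6.40 and 6.47 on the omeprazole arrays, 5.43, 5.87, 5.51 and 6.10 with STW5 0.5 ml/kg and 4.95, 5.65, 6.65 and 6.49 with STW5 2 ml/kg. It had 6.41, 3.69, 7.23 and 7.88 on the untreated arrays and 6.12, 5.61, 6.38 and 6.35 on the sham arrays. The same held for Cd74, again on untreated arrays 2 and 4. Tapbp had levels of 2.72, 2.77, 2.76 and 2.98 on the omeprazole arrays, 2.57, 2.11, 2.65 and 2.48 with STW5 0.5 ml/kg and 3.39, 2.86, 2.91 and 2.66 with STW5 2 ml/kg. It had 2.60, 2.76, 2.93 and 3.01 on the untreated arrays and 2.83, 2.72, 2.42 and 2.97 on the sham arrays. These levels stayed within a narrow range. B2m had levels of 7.48, 7.25, 7.63 and 7.12 on the omeprazole arrays, 8.05, 7.16, 7.44 and 7.86 with STW5 0.5 ml/kg and 8.97, 8.63, 7.75 and 8.06 with STW5 2 ml/kg. It had 8.08, 8.01, 7.09 and 7.60 on the untreated arrays and 8.31, 7.73, 8.15 and 8.34 on the sham arrays. The 2 highest B2m levels were on the STW5 2 ml/kg arrays.

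Between omeprazole and untreated blood Tapbp differed by -0.02 (95% interval -0.45 to 0.41), Psmb10 by -0.10 (-0.91 to 0.71), Cd74 by -0.03 (-1.28 to 1.22) and B2m by -0.33 (-0.93 to 0.28). Without untreated array 2 Psmb10 differed by -0.56 and Cd74 by -0.90, and neither passed the test. Of 11 interferon gamma targets tested, 9 had higher means with omeprazole (median 0.56, all genes 0.10) and none was called. The smallest p-values were those of Ifi47 and Irgm, interferon-inducible GTPases, at 1.31 and 1.40 (adjusted p = 0.246 for both). Of 11 transcription factors of MHC genes, 9 had higher means (median 0.28) and none was called. Nfya, a subunit of the Y box factor, was at 0.85 and Irf1 at 0.90 (adjusted p = 0.322 and 0.348). Of 13 other proteasome genes 10 had higher means (median 0.31), with Psme3 at 0.43 and Psma1 at 0.48. Of 7 genes of class I loading 6 had lower means (median -0.36), with the chaperone Canx at -0.60 and Sec61a1 at 0.51. Of 8 class II processing genes 5 had lower means (median -0.23), with the cathepsins Ctsl1 at -1.33 and Ctsh at 0.56. The 2 co-stimulation genes tested were Cd40 at -0.29 and Cd274 at 0.15. No gene of these lists was called. Among the partner genes and blood cell markers, only Cx3cr1, a chemokine receptor of monocytes and other leukocytes, was called in that comparison (-1.95, limma, adjusted p = 0.035).

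Within groups, class II genes had a median SD of 0.85, machinery genes 0.67 and class I genes 0.57, beside 0.51 over all genes. The widest spread belonged to 3 class I genes, RT1-CE12, RT1-CE10 and RT1-A2, with within-group SDs of 1.40, 1.19 and 1.14, above those of 99.2%, 98.2% and 97.8% of all genes. They are described because of that spread and were chosen after it was seen. RT1-A2, a classical class I gene, had levels of 4.59 to 5.83 on the omeprazole arrays. It had 5.43, 5.92, 5.29 and 2.82 on the STW5 0.5 ml/kg arrays and 3.45, 6.27, 5.15 and 4.80 on the STW5 2 ml/kg arrays. It had 3.24, 5.34, 5.94 and 3.75 on the untreated arrays and 5.35, 5.19, 3.08 and 5.46 on the sham arrays.

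RT1-A2 thus fell into 5 low arrays, up to 3.75, and 15 others, from 4.59 upward, and all groups except omeprazole held low arrays. The 5 low arrays were all among the 6 lowest for RT1-CE12, which was well above background on 12 arrays. RT1-CE10 was low on a single array, STW5 0.5 ml/kg array 4, at -4.82, where RT1-A2 and RT1-CE12 were also at their lowest. None of the 3 genes was called in any comparison, the lowest adjusted p being 0.472. As background, the number and kind of RT1 class I genes differ between rat haplotypes. The genotypes of these rats were not analysed here, and their part in the spread was not tested.

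**Figure D5:**
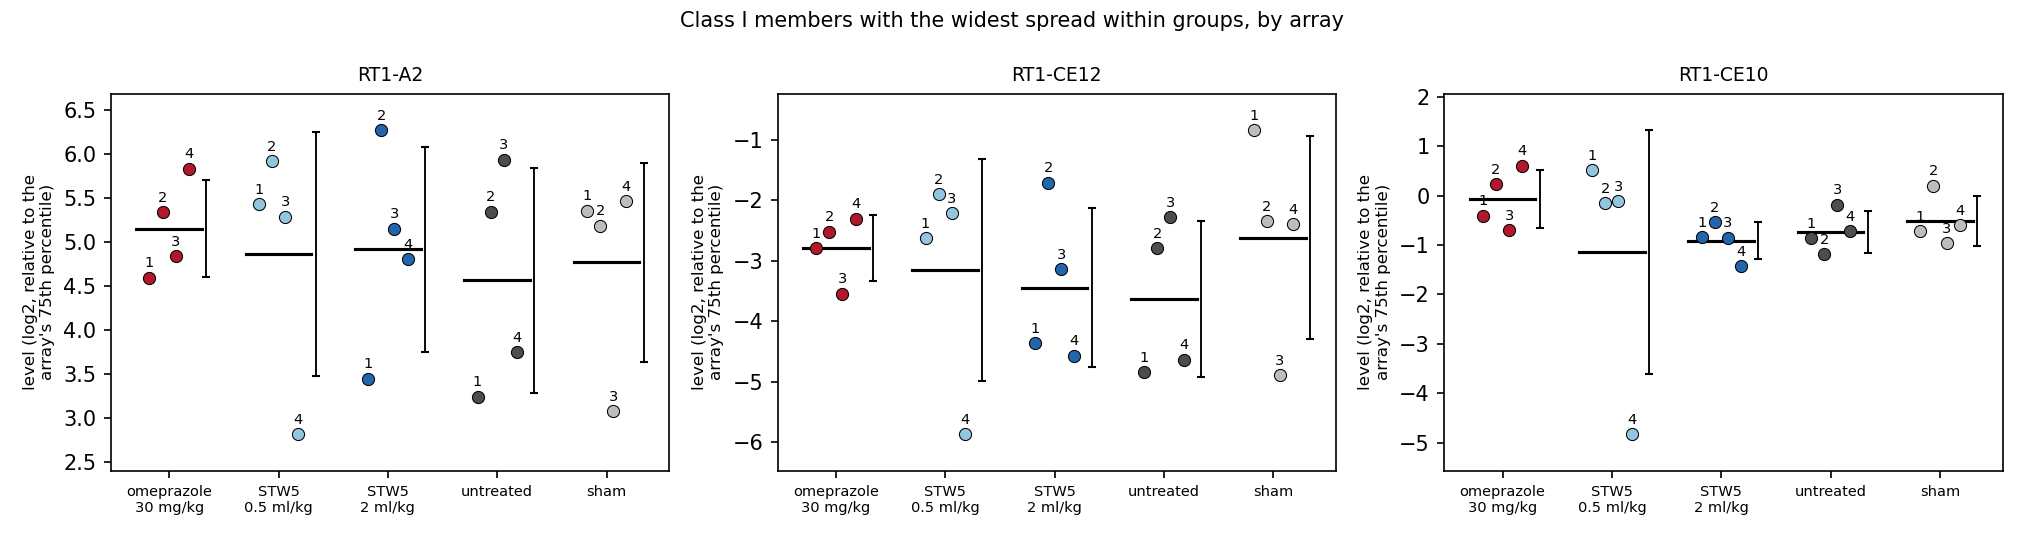
Levels of RT1-A2, RT1-CE12 and RT1-CE10 (vertical axes, log2 relative to the array's 75th percentile) on each array by group, with replicate numbers, group means and SDs over 4 arrays. The same 5 arrays are low for RT1-A2 and among the lowest for RT1-CE12.

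Probes of 1 gene did not always measure the same level. The 2 probes of RT1-M6-1 averaged 5.97 and -5.24, the second not well above background on any array, and the 3 probes of RT1-T18 averaged 5.89, -2.59 and -4.16. Those of RT1-CE5 averaged 6.04 and -0.65. The brightest probe stood for each gene, so values of these genes are those of 1 probe. The probes of RT1-M6-1 are shown because they differ most.
RT1-M6-1, brighter probe: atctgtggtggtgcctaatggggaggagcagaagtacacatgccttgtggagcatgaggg
RT1-M6-1, dimmer probe: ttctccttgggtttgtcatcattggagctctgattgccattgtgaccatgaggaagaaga

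The 9 genes not tested were RT1-Ba, RT1-Ha, RT1-M1-2, RT1-M1-4, RT1-M1-5, RT1-M10-1, RT1-M2, RT1-M4 and RT1-M5. Of these, 7 were not well above background on any array, RT1-Ha was so on 2 arrays and RT1-M2 on 1. RT1-Ha counted as class I by its name under the rule, although the Ha locus lies among the class II genes, and it entered no class I value.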

How the data were processed

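Whole blood RNA of 20 rats was measured on 1-colour Agilent arrays. Per the file headers, the intensity of each spot was extracted by the authors with Feature Extraction 10.7.3.1. Their processed intensity is background-subtracted and was not normalized between arrays. A value table deposited by the authors gives each spot as a ratio, the signal over the array's median, as found by comparison with the scanner files. Of its columns, 12 follow their own array and 8, all STW5, follow the array of the other dose.

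Non-outlier spots of a probe were averaged. Processed intensities were divided by their array's 75th percentile and put on a log2 scale. The test took the 17236 probes that stood well above background on 4 or more arrays, with the brightest probe per gene name. No spot was saturated. Group means of all 20 arrays were fitted with limma 3.58.1 in R 4.3.3, with two-sided tests and Benjamini-Hochberg adjustment over 15243 genes, and genes passed at 0.05. Correlations used 100000 permutations, two-sided. The fit was checked on simulated data. The number of arrays limits the precision.

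Members and lists were chosen with earlier results of these data known. Named by rule were all genes called, all class II and machinery genes and the 5 class I genes with the highest mean level. Of the partner lists, genes called or with the 2 smallest p-values were named, for omeprazole against untreated. Of the 53 genes, 50 matched RefSeq, 47 by accession and 3 by symbol, and 46 lay on chromosome 20. Promoters are RefSeq's (GRCr8). The arrays' own coordinates were not used here. Alternatives were quantile and spike-in scaling, normexp (offset 50), other filters, all probes of a gene, the value table, exchanged STW5 doses, a signal covariate, a replicate block, only the arrays compared and each array left out. Replicate numbers, which nothing in the labels ties to a litter or day, paired arrays by their deviations for STW5 2 ml/kg and untreated only (r of 0.187 to 0.488). Leaving out both untreated arrays 1 and 2, the block on these 8 arrays and the wider definition of near matches were added after seeing the data.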

Additional observations from a re-analysis of the deposited data

Results flagged for a closer look

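In 4 of 130 groups of 4 arrays, 1 array lay far from the others (gap over range above 0.829), and chance flags about 1 in 20 groups. Psmb10 was at 3.93 on STW5 0.5 ml/kg array 1, below the other arrays of that dose. RT1-A1 was at 7.56 on STW5 0.5 ml/kg array 4, the array on which RT1-A2, RT1-CE10 and RT1-CE12 were lowest. RT1-DMa was at 2.38 on STW5 2 ml/kg array 3, above the others. RT1-DOa was at -4.85 on untreated array 2, where it was not well above background.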

How the results depend on the processing

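RT1-T24-4 and RT1-CE4 kept their direction and their call in both omeprazole comparisons under all 32 alternatives, with adjusted p up to 0.0462. Counts of genes called moved more. With spike-in scaling the test called 5 of 44 genes for STW5 2 ml/kg against untreated (15% of all genes) and 24 for STW5 2 against 0.5 ml/kg (50.6% of all genes), where the median of all genes was itself at -1.09. With no filter on dim probes the last comparison called 3 of 53 (20.5% of all genes). With the array signal as a covariate it called 4 genes for omeprazole against untreated (7.81% of all genes) and 5 for omeprazole against STW5, both doses averaged (8.95%). Without untreated arrays 1 and 2, an alternative chosen after seeing the data, it called 11 genes for untreated against sham (28.5% of all genes), 7 for omeprazole against untreated (13.2%) and 13 for STW5 2 ml/kg against untreated (29.7%). Class II minus class I for both STW5 doses against untreated was then -1.61. Leaving out each array in turn gave 0 to 2, 2 to 5 and 0 to 3 genes for these 3 comparisons. For omeprazole against STW5 it gave 2 to 3 genes, with the share of all genes not given here. It called 2 genes for untreated against sham without untreated array 1 (11.6% of all genes), 5 for omeprazole against untreated without untreated array 4 (3.43%), and for STW5 2 ml/kg against untreated 3 without untreated array 1 (19.8%) and 2 without STW5 2 ml/kg array 3 (6.79%). Ciita also passed for omeprazole against untreated without untreated array 2, which held its lowest level, and this is not counted as a call. The share of all genes called there is not given here. Over the arrays left out in turn, class II minus class I ranged from 0.18 to 1.21 (untreated against sham), -0.47 to 0.56 (omeprazole against untreated) and -1.26 to -0.23 (STW5 against untreated). Why these values moved was not tested. Same-numbered arrays correlated at -0.44 to 0.59 in their deviations, over 0.1 in 19 of 40 pairs. Only for STW5 2 ml/kg and untreated did all 4 pairs exceed 0.1 (0.19 to 0.49), and the replicate block called 0 of the 44 genes there, also in a fit of these arrays alone, chosen after seeing the data. With the replicate block, omeprazole against STW5 called 3 genes, RT1-CE11 besides the 2, and no other count of calls among the 44 genes changed. The share of all genes called in that fit is not given here, and without the block it was 4.86%.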
